A study of Zea mays with 12 samples.

Results

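The watered ear leaf was compared with the watered young ear in the maize inbred line B104. The comparison rests on 4 of the 12 libraries of the series, namely control leaf 1 and 2 and control ear 1 and 2. The ear leaf, the leaf at the node that carries the ear, was taken at 5 days after pollination. The young ear was the upper ear taken during spike differentiation, at the V9 stage. Both organs came from field plants that were not stressed, and each library was made from organs of 4 plants. All genes were considered, and 26090 genes were tested of 34303 that had a count in any library and 34423 that were listed. The other libraries came from the kernel and from plants that went through drought. Organ and stage differ together between the compared groups and cannot be told apart. With 2 libraries per organ the p-values rest on a spread estimated jointly from all 12 libraries, kernel and drought included. The common biological coefficient of variation of that fit was 0.0624, against 0.11 in the watered ear leaf pair alone. The p-values can therefore be too small for the variation between pools of ear leaves.

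Maize uses C4 photosynthesis. In mesophyll cells carbon dioxide is first fixed by phosphoenolpyruvate carboxylase, the product passes to bundle sheath cells, and NADP-malic enzyme there releases the carbon dioxide to Rubisco. The ear leaf is a mature source organ that exports sucrose to the ear. The young ear is a sink built of inflorescence and spikelet meristems, in which KNOX homeodomain proteins maintain undetermined cells while dividing cells below them form paired spikelets and florets.

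For 3 genes that the results below describe, the primers used in the study for real-time PCR are shown, because each of these genes differed strongly between the organs or between the ear leaf libraries. All are written 5′ to 3′ in lower case, with no part marked. ACT1 is an actin gene, LAX2 is a homolog of an auxin influx carrier, and psbA is the gene of a photosystem II reaction centre protein.
ACT1 (GRMZM2G126010) forward: atcaccattgggtcagaaagg
ACT1 (GRMZM2G126010) reverse: gtgctgagagaagccaaaatagag
LAX2 homolog (GRMZM2G149481) forward: cttcttcgggcccatcaact
LAX2 homolog (GRMZM2G149481) reverse: gaagtttgtcatgctcgccc
psbA homolog (GRMZM2G427369) forward: cttggcctgtagtagggatc
psbA homolog (GRMZM2G427369) reverse: tagagggaagttgtgagcatt

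The totals of rounded expected counts were 5448989 and 3429339 in the ear leaf libraries and 5300612 and 5215782 in the ear libraries. The 100 most abundant genes took 26.2% and 25.9% of the ear leaf counts and 11.6% and 11.8% of the ear counts. Levels are given as CPM, counts per library scaled to a common total with TMM factors, in control leaf 1 and 2 and then in control ear 1 and 2. A count of 3, the floor used for lower bounds, was worth 0.851 and 1.31 CPM in the ear leaf and 0.48 and 0.492 CPM in the ear. The labelled organs fitted their markers. The 6 markers of photosynthetic leaf, all higher in the ear leaf, summed to 19315 and 18335 CPM in the ear leaf and to 73.6 and 81.1 CPM in the ear. The 9 markers of inflorescence meristems and primordia summed to 83.7 and 93.3 CPM in the ear leaf and to 497 and 512 CPM in the ear, and 8 of them were lower in the leaf. Pollen markers summed to 3.12 and 1.74 CPM in the ear leaf and were at 0 in both ear libraries, and none of the 5 passed the filter. Endosperm markers summed to 141 and 139 CPM in the ear leaf and 124 and 132 CPM in the ear, and those of embryo to 41.1 and 54.9 CPM in the ear leaf and 15.2 and 14.4 CPM in the ear. Only 1 gene of each of these lists was higher in the leaf, namely opaque10 (GRMZM2G346263), which was not called without control leaf 1, and the dehydrin gene rab17 (GRMZM2G079440). Of 7 markers of lignified and secondary walls 3 were higher, against 26.1% of all genes tested, and so few genes say little. The 2 ear leaf libraries differed more from each other than the ear libraries did, with a biological coefficient of variation of 0.11 in the leaf pair and 0.0304 in the ear pair. That difference is described further on.

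Nearly as many genes were lower as were higher in the ear leaf. With edgeR's quasi-likelihood test, a Benjamini-Hochberg adjusted p under 0.001 and at least a 2-fold difference, 6822 genes were higher in the ear leaf than in the ear, which is 26.1% of those tested. Another 5881 genes were lower, which is 22.5%, so that 48.7% were called in either direction. In the rest of the text, higher, lower and called refer to these criteria. The values of the organs did not overlap for 12692 of the 12703 called genes, and likewise for 22364 of all 26090 genes tested, so that with 2 libraries per organ this says little about a called gene. A difference of at least 8-fold was fitted for 3559 of the higher genes and 2823 of the lower genes, and one of at least 64-fold for 1481 higher and 840 lower genes. The ear libraries held no count of 505 of the higher genes, and the ear leaf libraries none of 413 of the lower genes. The samples are bulk tissue, in which fewer cells of a type and less RNA per cell cannot be told apart.

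The balance of calls depended on the scaling. The median log2 fold change over all genes tested was -0.01 with TMM factors and -0.85 when only library size was used. Of the calls 53.7% were higher with TMM and 31.9% with library size, as 4802 higher genes (18.4% of those tested) and 10245 lower genes (39.3%). All 4802 of these higher genes were also higher with TMM, all 5881 lower genes were also lower with library size, and no gene was called in opposite directions. Fold changes below are relative to the TMM scale.

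**Figure D1:**
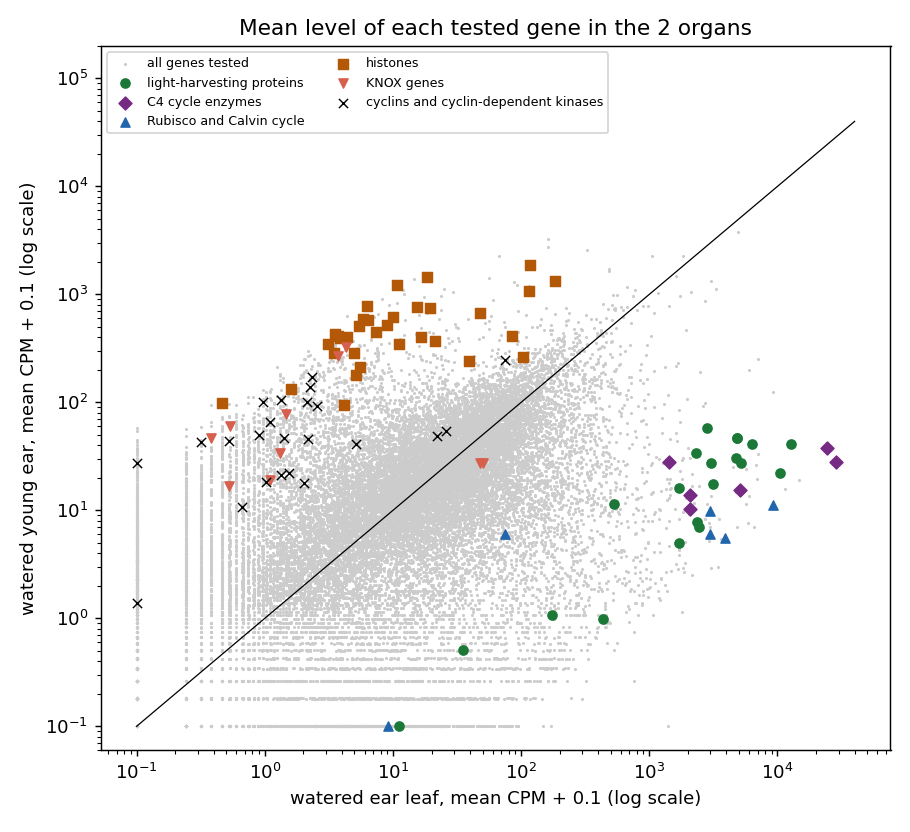
Each point is a tested gene, with its mean CPM plus 0.1 in the watered ear leaf on the x axis and in the watered young ear on the y axis, both on log scales, and the diagonal marks equal levels. Light-harvesting, C4 and Rubisco and Calvin cycle genes lie below the diagonal, and histone genes, all 23 cyclin and kinase genes and 8 of 10 KNOX genes lie above it.

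All 6 tested genes of the C4 cycle list were higher in the ear leaf, with log2 fold changes between 5.68 and 10 and a median of 8.02. Phosphoenolpyruvate carboxylase, pep1 (GRMZM2G083841), had 29424 and 28133 CPM in the ear leaf and 27.5 and 28.8 CPM in the ear. It was 1021-fold higher in the leaf (log2 fold change 10, SE 0.06; edgeR adjusted p = 2.12e-35). Pyruvate orthophosphate dikinase, pdk1 (GRMZM2G306345), which regenerates the acceptor phosphoenolpyruvate, had 24702 and 23628 CPM in the ear leaf and 39.5 and 36.5 CPM in the ear, a 635-fold difference. Per unit of gene length pdk1 was the more abundant transcript in the leaf, at 9903 and 9783 FPKM (fragments scaled to gene length and library size) against 5720 and 5654 FPKM of pep1.

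NADP-malic enzyme, me3 (GRMZM2G085019), had 5159 and 5011 CPM in the ear leaf and 16.5 and 14.1 CPM in the ear. Malate dehydrogenase mdh6 (GRMZM2G129513) had 2134 and 2026 CPM in the ear leaf and 13.3 and 14.1 CPM in the ear. The log2 fold changes were 8.37 for me3 and 7.25 for mdh6. The regulators of the cycle moved with its enzymes. The dikinase regulatory protein pdrp1 (GRMZM2G131286) was 202-fold higher, with 2085 and 2037 CPM in the ear leaf and 11.5 and 8.85 CPM in the ear. PPCK1 (GRMZM2G178074), the kinase that acts on the carboxylase, was 51.1-fold higher, with 1449 and 1426 CPM in the ear leaf and 26.7 and 29.5 CPM in the ear. The C4 genes together took 4.2% and 4.17% of all counts in the ear leaf and 0.0159% and 0.0154% in the ear.

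All 6 tested genes of the Rubisco and Calvin cycle list were higher as well. The small subunit gene rbcS (GRMZM2G098520) had 3017 and 2909 CPM in the ear leaf and 8.32 and 11.0 CPM in the ear. The subunits of plastid glyceraldehyde-3-phosphate dehydrogenase, which reduces the first products of fixation, showed larger differences. The subunit gene gpb1 (GRMZM5G845611) had 9401 and 8920 CPM in the ear leaf and 10.6 and 11.8 CPM in the ear, an 818-fold difference, and gpa1 (GRMZM2G337113) was 721-fold higher in the leaf. Rubisco activase rca1 (GRMZM2G162200) had 3048 and 2925 CPM in the ear leaf and 5.92 and 5.9 CPM in the ear. A second activase gene, rca3 (GRMZM2G162282), had only 10.8 and 7.41 CPM in the ear leaf and no count in the ear, so that it was at least 18.7-fold higher.

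The light-harvesting proteins, which bind chlorophyll around the photosystems, were higher for all 20 genes of the list. Of its members 19 came from the study's tables of genes that responded to drought in these libraries, so that the count is not independent evidence of the direction. Their median log2 fold change was 7.38, or 7.28 when the gene without counts in the ear was set at its lower bound. The gene lhcb7, also called Cab-m7 (GRMZM2G402936), had 13073 and 12311 CPM in the ear leaf and 36.8 and 45.7 CPM in the ear. An LHCA3 homolog of photosystem I (GRMZM2G010884) had 10631 and 10279 CPM in the ear leaf and 20 and 24.6 CPM in the ear. The minor antenna gene cp29 (GRMZM2G033885) had 6643 and 6074 CPM in the ear leaf and 41.4 and 41.0 CPM in the ear. In all 3 the leaf libraries lay close together, more than 100-fold above the ear. The antenna gene lhcb3 (GRMZM2G155216) was 190-fold higher in the leaf. The smallest fitted difference of the list was that of a CP24 homolog (GRMZM2G039996), which was 46.9-fold higher. The gene cab48 (GRMZM2G120619) had no count in the ear and was at least 22.6-fold higher in the leaf. A pair of LHCB2 homologs, GRMZM2G018627 and GRMZM2G414192, had identical counts in all libraries, so that their separate levels are uncertain.

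Of the 34 tested photosystem subunits 33 were higher, with a median log2 fold change of 8.33. Without control leaf 2 the median was 7.41. In this list 35 members came from the same drought tables, and the same limit holds. The nuclear subunit gene psa6 (GRMZM2G012397) had 6176 and 5874 CPM in the ear leaf and 11.5 and 15.2 CPM in the ear. A PSBO homolog (GRMZM2G175562), whose product stabilises the manganese cluster of photosystem II, had 5817 and 5532 CPM in the ear leaf and 22.2 and 25.9 CPM in the ear. A PSBQ homolog of the same oxygen-evolving complex (GRMZM2G058070) had 1483 and 1340 CPM in the ear leaf and no count in either ear library, and was at least 2906-fold higher. The exception was another gene named PSBQ (GRMZM2G021617), at 41.4 and 53.2 CPM in the ear leaf and 59.2 and 58.2 CPM in the ear, which was not called. The gene psbs1 (GRMZM2G077333), whose product triggers the dissipation of excess light, was 670-fold higher in the leaf. The study's own tables of photosystem I, photosystem II and antenna genes gave 19 of 19, 25 of 25 and 19 of 19 tested genes higher. Those counts carry the same limit. The median log2 fold change of the photosystem II table was 7.05, or 6.18 without control leaf 2. On the photosystem list 4 genes, all with best hits in the plastid genome, were no longer called without control leaf 2. They were GRMZM2G117572, GRMZM2G358180, GRMZM2G455413 and GRMZM5G808939. With library size alone 32 genes of the list were higher, and the gene named PSBQ was lower.

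**Figure D2:**
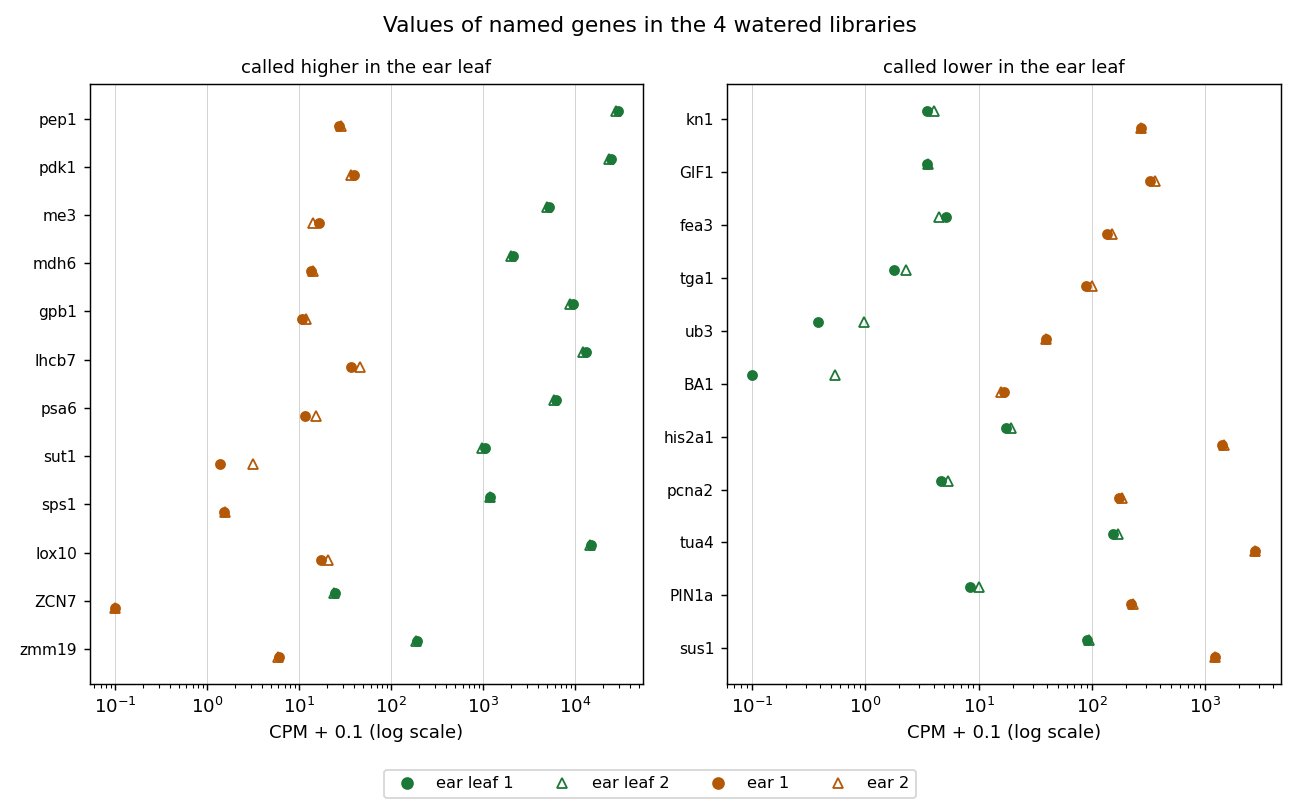
The CPM of 23 named genes is plotted on a log scale for each library, with control leaf 1 and 2 beside control ear 1 and 2. The replicates of an organ nearly coincide for most genes, such as pep1 at 29424 and 28133 CPM in the ear leaf and 27.5 and 28.8 CPM in the ear. No gene shown has overlapping organs, which follows from their choice among called genes. The organs do not overlap for 12692 of the 12703 called genes and for 22364 of all 26090 genes tested.

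Of 3 tested genes of glycolate oxidase and catalase 2 were higher in the leaf. Glycolate oxidase go1 (GRMZM2G129246), an enzyme of photorespiration, had 1425 and 1315 CPM in the ear leaf and 2.08 and 1.31 CPM in the ear, which gave a log2 fold change of 9.64. Catalase cat2 (GRMZM2G090568), which removes hydrogen peroxide, was 282-fold higher in the leaf, whereas cat1 (GRMZM2G088212) had 170 and 164 CPM in the ear leaf and 163 and 171 CPM in the ear and was not called. Of 3 tested genes of chlorophyll synthesis 2 were higher as well. Magnesium chelatase makes the first dedicated intermediate of chlorophyll. Its subunit gene oy1 (GRMZM2G419806) was 25.0-fold higher and a CHLH homolog (GRMZM2G323024) 149-fold higher in the leaf. The cyclase gene crd101 (GRMZM2G117100) was not called, at 77.7 and 65.8 CPM in the ear leaf and 55.5 and 59.8 CPM in the ear. Among 7 tested genes listed for sucrose synthesis and phloem loading, 5 were higher and none was lower. One of the 5 is psbs1, which stood on the list although it is a photosystem gene. Sucrose phosphate synthase sps1 (GRMZM5G875238) had 1202 and 1184 CPM in the ear leaf and 1.44 and 1.47 CPM in the ear. The sucrose transporter sut1 (GRMZM2G034302), which loads sucrose into the phloem, had 1050 and 985 CPM in the ear leaf and 1.28 and 3.11 CPM in the ear. The vacuolar type transporter sut4 (GRMZM2G307561) was 8.99-fold higher, and sut2 (GRMZM2G145107) was not called, at 22.1 and 29.6 CPM in the ear leaf and 24.8 and 20.8 CPM in the ear.

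The 10 most abundant of the genes at least 8-fold higher in the ear leaf included pep1, pdk1, gpb1, lhcb7 and the LHCA3 homolog. The lipoxygenase lox10 (GRMZM2G015419), which makes precursors of leaf volatiles, was also among them, with 15079 and 14498 CPM in the ear leaf and 17.4 and 20.8 CPM in the ear. An FBA2 homolog (GRMZM2G046284), a fructose-bisphosphate aldolase, had 11791 and 11294 CPM in the ear leaf and 16 and 15.2 CPM in the ear. The other 3 carried no name in the tables used here, and AC207722.2, for example, had 9417 and 8913 CPM in the ear leaf and 123 and 126 CPM in the ear. Among the 10 largest folds was PR-5 (GRMZM2G402631), a defence-related protein, with 1852 and 1748 CPM in the ear leaf and 0.96 and 1.15 CPM in the ear.

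All 33 tested histone genes were lower in the ear leaf, with log2 fold changes between -8.07 and -1.35 and a median of -5.86. Of the list's members 27 came from the study's tables of drought responses in these libraries, so that the count is not independent evidence of the direction. Together they made up 0.0587% and 0.0591% of the ear leaf counts and 2.13% and 2.21% of the ear counts. The linker histone his1a (GRMZM2G401308) had 116 and 117 CPM in the ear leaf and 1862 and 1921 CPM in the ear. The core histone his2a1 (GRMZM2G305046) had 17.3 and 19.2 CPM in the ear leaf and 1399 and 1472 CPM in the ear, and was 79.3-fold higher in the ear. A homolog of histone H4 (GRMZM2G479684) showed a log2 fold change of -6.73 (SE 0.23; edgeR adjusted p = 4.35e-25). The nucleosome assembly table of the study, which was chosen on these libraries, had 29 of 30 tested genes lower.

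The DNA replication list had 12 of 13 tested genes lower and none higher. The sliding clamp gene pcna2 (GRMZM2G108712) had 4.54 and 5.23 CPM in the ear leaf and 173 and 183 CPM in the ear. The helicase subunit gene MCM6 (GRMZM2G021069) had 1.99 and 2.18 CPM in the ear leaf and 122 and 115 CPM in the ear. Members of one enzyme differed among themselves. Ribonucleotide reductase makes the deoxynucleotides for replication, and its small subunit gene RNRS3 (GRMZM2G323679) had 1.13 and 1.31 CPM in the ear leaf and 169 and 184 CPM in the ear, which gave a log2 fold change of -7.17. The small subunit gene RNRS1 (GRMZM2G060163) was only 3.02-fold lower, and RNRS2 (GRMZM2G155546) was not called, with 39.4 and 48.4 CPM in the ear leaf and 36.5 and 43.3 CPM in the ear.

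Of 23 tested cyclins, cyclin-dependent kinases and their inhibitors 22 were lower and none was higher. Here 18 members came from the study's drought tables, and the count is not independent evidence of the direction either. The median log2 fold change was -5.45, or -4.67 with genes without counts in the leaf at their bounds. A CYCB1;2 homolog (GRMZM2G073003), a cyclin of mitosis, had 2.27 and 2.18 CPM in the ear leaf and 167 and 176 CPM in the ear. A CYCD3;2 homolog (GRMZM2G107377), a cyclin of the entry into the cell cycle, had 0.851 and 0.872 CPM in the ear leaf and 98.4 and 103 CPM in the ear. A homolog of the plant mitotic kinase CDKB1;1 (GRMZM2G495626) was 41.0-fold lower. The smallest of these differences was that of the kinase gene cdc2 (GRMZM2G008327), 2.13-fold lower, and cyclin4 (GRMZM2G310115) was 3.27-fold lower, at 78.8 and 70.6 CPM in the ear leaf and 238 and 254 CPM in the ear. The list also held 3 tested homologs of the inhibitor KRP3, of which GRMZM2G157510 and GRMZM2G358931 were lower and GRMZM2G343769 was not called.

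Tubulins and kinesins form the spindle and the cortical arrays. Of 18 tested genes 15 were lower and 1 was higher. The alpha-tubulin gene tua4 (GRMZM2G152466) had 155 and 170 CPM in the ear leaf and 2770 and 2756 CPM in the ear, and TUA2 (GRMZM2G153292) had 327 and 326 CPM in the ear leaf and 2604 and 2551 CPM in the ear. The beta-tubulin gene TUB1 (GRMZM2G164696) was 46.8-fold lower and the kinesin gene KIN13 (GRMZM2G034828) 116-fold lower. The kinesin gene kin15 (GRMZM2G054418) was higher in the leaf by a log2 fold change of 1.06 on the TMM scale only, since no gene of this list was higher with library size alone. The 10 most abundant genes among those at least 8-fold lower in the leaf included tua4, his1a, his2a1 and the linker histone gene hon110 (GRMZM2G164020). They also included HRGP (GRMZM2G168651), a hydroxyproline-rich cell wall protein, with 60.7 and 74.1 CPM in the ear leaf and 2242 and 2270 CPM in the ear. A further member, GRMZM2G101268, has no name in the tables used here and had 154 and 169 CPM in the ear leaf and 3228 and 3236 CPM in the ear.

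**Figure D3:**
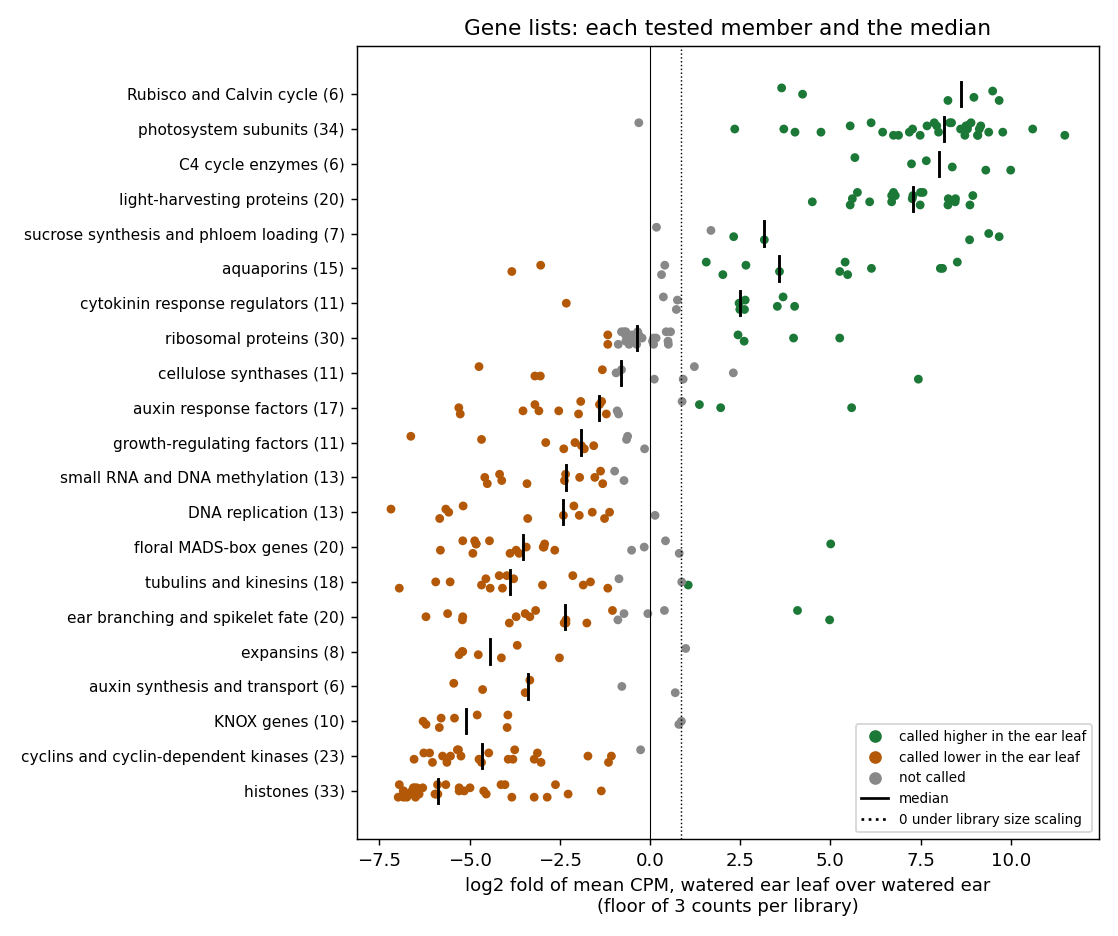
Each point is a tested member of a gene list, placed by the log2 fold of its mean CPM in the watered ear leaf over the watered ear with a floor of 3 counts per library, members at or under the floor in both organs being left out. Bars mark list medians, the dotted line marks where 0 lies with library size scaling, and the lists run from Rubisco and Calvin cycle genes at the top, all higher in the leaf, to histones at the bottom, all lower.

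Of the 10 tested KNOX genes 8 were lower in the ear leaf and none was higher. The founding gene of the family, kn1 (GRMZM2G017087), which maintains shoot meristems, had 3.4 and 3.92 CPM in the ear leaf and 270 and 272 CPM in the ear. It was 74.6-fold lower in the leaf (log2 fold change -6.22, SE 0.27; edgeR adjusted p = 2.53e-23). The related gene knox3 (GRMZM2G000743) was 55.7-fold lower. For gnarley1, also called knox4 (GRMZM2G452178), the ear leaf held 0 and 2 counts and the ear 344 and 393 counts, a ratio of 174 with an exact 95% interval of counting error from 47.9 to 1436. The exceptions were knox6 (GRMZM2G370332), with 49.1 and 45.8 CPM in the ear leaf and 31.2 and 23.1 CPM in the ear, and knox7 (GRMZM2G433591), with 52.2 and 48.8 CPM in the ear leaf and 25.9 and 29.3 CPM in the ear. Neither passed the fold criterion.

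Genes that set the size of meristems were mostly lower, namely 5 of 7 tested. GIF1 (GRMZM2G180246), a coactivator of growth-regulating factors, had 3.4 and 3.49 CPM in the ear leaf and 323 and 359 CPM in the ear. The receptor gene fea3 (GRMZM2G166524) had 5.1 and 4.36 CPM in the ear leaf and 137 and 151 CPM in the ear, and was 29.8-fold lower, whereas the receptor gene fea2 (GRMZM2G104925) was 2.45-fold lower, with 19.9 and 19.6 CPM in the ear leaf and 47.7 and 49.3 CPM in the ear. TD1 (GRMZM2G300133), the receptor kinase in the same pathway as fea2, had 59.0 and 65.8 CPM in the ear leaf and 87.4 and 98.6 CPM in the ear and was not called. The stem cell genes wus1 and wus2 were under the filter, with at most 0.655 CPM in any of the 4 libraries. The one gene of the list that was higher in the leaf was crr1 (GRMZM2G040736), a cytokinin response regulator, with 9.08 and 6.54 CPM in the ear leaf and 0.32 and 0 CPM in the ear.

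Genes known from mutants with altered branching or spikelets of the inflorescence were lower in 14 of 21 tested cases and higher in 2. The SBP-box genes, which are transcription factors of inflorescence architecture, had low counts in the leaf. Of these tga1 (GRMZM2G101511), which also shapes the hard case of the teosinte grain, had 1.7 and 2.18 CPM in the ear leaf and 89.3 and 100 CPM in the ear. Its relative ub2 (GRMZM2G160917) was 35.9-fold lower in the leaf. Its relative ub3 (GRMZM2G460544) had 1 and 2 counts in the ear leaf and 247 and 241 counts in the ear. The branching gene BA1 (GRMZM2G397518), needed to start axillary meristems, had 0 and 1 counts in the leaf and 104 and 95 counts in the ear. The genes of the ramosa pathway, which make spikelet pairs in place of branches, were without counts in the leaf and few in the ear. There ra1 (GRMZM2G003927) had 4.16 and 3.11 CPM in the ear and was at least 3.37-fold higher than in the leaf, and ra3 (GRMZM2G014729) was at least 5.02-fold higher. The LEAFY homolog zfl1 (GRMZM2G098813) was 19.9-fold lower in the leaf.

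The 2 genes of this list that were higher in the leaf are both tasselseed genes, which are known for the abortion of pistils in the tassel. The lipoxygenase gene ts1 (GRMZM2G104843), of jasmonate synthesis, had 150 and 137 CPM in the ear leaf and 7.84 and 9.01 CPM in the ear. The dehydrogenase gene ts2 (GRMZM2G455809) had 19.3 and 11.3 CPM in the ear leaf and 0.32 and 0.492 CPM in the ear. The spikelet gene ids1 (GRMZM5G862109) was not called, at 26.7 and 24.8 CPM in the ear leaf and 27.0 and 26.5 CPM in the ear, nor were an1, sid1, BIF4 and lg1.

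The floral MADS-box genes, transcription factors that give floral organs their identity, were lower in 15 of 20 tested cases. The gene zmm14 (GRMZM2G102161) had 0.567 and 2.18 CPM in the ear leaf and 85.6 and 84.9 CPM in the ear, and Silky1 (GRMZM2G139073), of petal and stamen identity, was 42.3-fold lower. MADS4 (GRMZM2G097059) had no count in the leaf and was at least 30.1-fold higher in the ear. The single gene that was higher in the leaf was zmm19 (GRMZM2G370777), the gene of the tunicate locus of pod corn, in which leaf-like glumes enclose the kernels. It had 193 and 189 CPM in the ear leaf and 5.92 and 5.9 CPM in the ear, which gave a log2 fold change of 5.01 (SE 0.20; edgeR adjusted p = 2.14e-21). Of 11 tested growth-regulating factors and GIF genes 8 were lower and none was higher. GRF1 (GRMZM2G178261), not in that list, was among the 10 lowest folds of all genes, with 1.42 and 0.872 CPM in the ear leaf and 199 and 222 CPM in the ear.

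Of 6 tested genes of auxin synthesis and transport 4 were lower and none was higher. The efflux carrier PIN1a (GRMZM2G098643), which moves auxin towards new primordia, had 8.22 and 10 CPM in the ear leaf and 223 and 232 CPM in the ear, and PIN1d (GRMZM2G171702) was 47.1-fold lower in the leaf. The influx carrier genes named here were lower too, and others of the family are not reported. The AUX1 gene aic1 (GRMZM2G129413) had 2.84 and 1.31 CPM in the ear leaf and 261 and 276 CPM in the ear, and the LAX2 homolog (GRMZM2G149481), whose primers are given above, had 1.42 and 1.74 CPM in the ear leaf and 100 and 104 CPM in the ear. The auxin synthesis gene spi1 (GRMZM2G025222) had no count in the leaf and was at least 11.0-fold higher in the ear. Not called were PIN10a (GRMZM2G126260), with a log2 fold change of -0.80, and br2 (GRMZM2G315375), with 0.71.

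Of 18 tested auxin response factors 11 were lower and 3 were higher. ARF23 (GRMZM2G441325) had 3.69 and 3.49 CPM in the ear leaf and 136 and 140 CPM in the ear, and ARF3 (GRMZM2G078274) had 26.4 and 20.5 CPM in the ear leaf and 264 and 273 CPM in the ear. In the other direction ARF21 (GRMZM2G390641) had 90.2 and 81.5 CPM in the ear leaf and 1.92 and 1.64 CPM in the ear. With library size alone 2 of the 3 higher genes were still called. A homolog of the auxin repressor AXR2/IAA7 (GRMZM2G079200) was also higher in the leaf, with 62.4 and 58.8 CPM in the ear leaf and 3.68 and 3.6 CPM in the ear. The study's table of auxin signalling, chosen on these libraries, had 5 lower and 2 higher of 13 tested genes, against 22.5% and 26.1% of all genes.

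The cytokinin response regulators, phosphorelay proteins that cytokinin induces or that act on its targets, were mostly higher in the leaf. Of 11 tested genes 7 were higher, with TMM and with library size alone, and 1 was lower. RR5 (GRMZM2G032496) had 307 and 276 CPM in the ear leaf and 53.3 and 51.0 CPM in the ear, and RR6 (GRMZM2G129954) had 89.9 and 78.9 CPM in the ear leaf and 7.36 and 7.21 CPM in the ear. RR9 (GRMZM2G060485) went the other way, with 11.6 and 14.8 CPM in the ear leaf and 69.9 and 62.4 CPM in the ear. This list had a different balance in the drought libraries, as given further on.

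The genes of small RNA pathways and DNA methylation were lower in 11 of 13 tested cases, and none was higher. The leafbladeless gene lbl1 (GRMZM2G020187), of the trans-acting small RNA pathway, had 27.2 and 34 CPM in the ear leaf and 544 and 514 CPM in the ear. The chromomethylase gene met2 (GRMZM2G025592) had 19.9 and 19.2 CPM in the ear leaf and 353 and 350 CPM in the ear, and the RNA-dependent RNA polymerase gene mop1 (GRMZM2G042443) was 10.8-fold lower. The dicer gene dcl1 (GRMZM2G040762) was just short of the fold criterion, with a log2 fold change of -0.99.

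Cell wall genes differed by gene. Of 11 tested cellulose synthases and related genes 4 were lower, 1 was higher and 6 were not called, against 22.5% lower and 26.1% higher among all genes. So small a list says little about the family. The primary wall gene cesa8 (GRMZM2G177631) had 3.4 and 7.85 CPM in the ear leaf and 146 and 154 CPM in the ear. The gene higher in the leaf was bk2 (GRMZM2G109326), known from the brittle stalk mutant with weak secondary walls, with 284 and 202 counts in the ear leaf and 1 and 0 counts in the ear. A cellulose synthase-like gene, CSLD1 (GRMZM2G015886), was among the lowest folds of all genes, with 1.99 and 4.36 CPM in the ear leaf and 434 and 453 CPM in the ear. Expansins loosen walls of growing cells, and 7 of 11 tested were lower with none higher. Among the expansins expa2 (GRMZM2G105844) had 5.96 and 9.15 CPM in the ear leaf and 270 and 290 CPM in the ear. An actin gene, ACT1 (GRMZM2G126010), whose primers are given above, was 7.19-fold higher in the leaf, with 119 and 127 CPM in the ear leaf and 16.3 and 17.9 CPM in the ear. It was chosen for description after its values were seen.

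The ear leaf libraries were then compared with each other, because some genes were much higher in control leaf 2. Among them were genes with a best hit in the Arabidopsis plastid genome. Of 16048 genes with a mean of at least 20 counts in the leaf pair, 64 were at least 4-fold higher in control leaf 2 and 5 in control leaf 1. Of the 64 genes 13 had a plastid best hit on record. Best hits were on record only for the 1234 of 34423 genes that the study's supplementary tables annotate. For genes outside those tables a plastid origin was not assessed. Of the 64 genes 37 were higher in the leaf than in the ear, and 19 of these were still called without control leaf 2. In the ear pair 9 of 19093 such genes were 4-fold apart in either direction. The study's tables give a best hit in the Arabidopsis plastid genome for 14 genes, and all 14 were higher in control leaf 2. These tables hold genes that responded to drought in these libraries, control leaf 2 included, so that the choice of the 14 is not independent of that library. Some share a best hit, such as GRMZM2G427369, GRMZM2G455413 and GRMZM5G844143 for psbA, so that their separate counts are uncertain. Below, the 14 are called plastid genes for short, although their place in the maize genome was not given. Their counts summed to 956 in control leaf 1 and 17640 in control leaf 2, against 176 and 165 in the ear. In contrast, 46 other genes of photosystems and antenna, without such a hit on record, summed to 125163 and 118964 CPM in the ear leaf and 729 and 779 CPM in the ear.

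The psbA homolog GRMZM2G427369 had 92 and 5568 counts in the ear leaf and 11 and 16 in the ear. Its log2 fold change was 9.09 with a large SE of 2.14, and 3.56 without control leaf 2, still called (edgeR adjusted p = 1.37e-08). A psbC homolog (GRMZM5G856777) had 150 and 3360 counts in the ear leaf and 7 and 14 in the ear, and its log2 fold change was 8.73, or 4.62 without control leaf 2. Another psbA homolog, GRMZM2G455413, had 8 and 1587 counts in the ear leaf and 6 and 0 in the ear and was no longer called without that library. The petA homolog GRMZM2G448174, of the cytochrome complex, had 516 and 1024 counts in the ear leaf and 81 and 72 in the ear, and its log2 fold change of 4.53 became 3.56. These libraries were enriched for polyadenylated RNA, and why the plastid genes differ between them was not tested.

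Their sums in CPM were 271 and 7688 in the watered leaf and 109 and 126 in the drought leaf. Of the 14 plastid genes 11 passed the filter, and all of these were higher, with a median log2 fold change of 8.5. Without control leaf 2, 10 were tested, 5 were higher and the median was 2.90. Without control leaf 1 all 14 were tested and higher, with a median of 9.71. The photosystem list then had 29 higher genes without control leaf 2 in place of 33, whereas the counts for C4, Calvin cycle and light-harvesting genes stayed at 6, 6 and 20. Of the 6822 genes higher in the leaf, 6467 were also called without control leaf 2. Of the 355 lost, 353 were tested and 348 had the same sign. The fold change moved by more than 1.5 times for 58 of 6317 higher genes with a value.

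**Figure D4:**
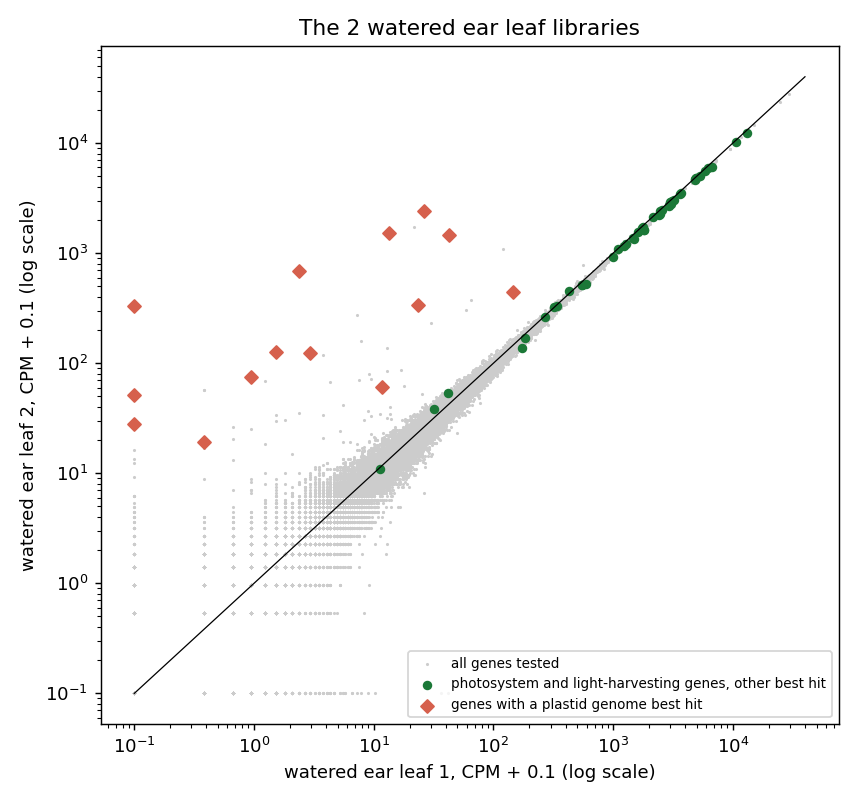
The CPM plus 0.1 of each gene in control leaf 1 and control leaf 2 are plotted against each other on log scales, with genes of a plastid best hit marked. Most genes follow the diagonal, and all 14 genes with such a hit lie on the side of control leaf 2.

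The same organ comparison in the drought libraries, which are other libraries of the same fit, gave 6788 genes higher in the ear leaf (26%) and 6189 lower (23.7%). Of the watered calls 77.2% were called in the same direction under drought, which is 75.6% of the drought calls. Another 51 genes were higher in the leaf when watered and lower under drought, and 57 were the reverse. All 6 C4 genes were also higher under drought, with a median log2 fold change of 5.81 against 8.02 when watered. For pep1 (GRMZM2G083841) the log2 fold change was 5.90 under drought, with 1521 and 1528 CPM in the drought leaf and 27.5 and 23.6 CPM in the drought ear, and it was larger when watered by 4.10 (edgeR interaction test, adjusted p = 1.81e-22). For me3 (GRMZM2G085019) it was 8.01 under drought, with 3572 and 3524 CPM in the drought leaf and 13.7 and 13.8 CPM in the drought ear, and the difference of 0.37 had an adjusted p of 0.0406 in the same edgeR test. The light-harvesting list had 18 of 20 genes higher under drought, with a median of 3.19, and the fold was smaller under drought for 19 of the 20. Since 19 members were tabulated for a drought response in these libraries, a fold that differs under drought follows from the choice of the list and is no finding.

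Histones were lower in the drought leaf in 29 cases, with a median of -3.95. As 27 members were tabulated for a drought response, the difference from the watered median of -5.86 likewise follows from the choice. Their summed level was 1237 and 1238 CPM in the drought leaf and 6852 and 6896 CPM in the drought ear, against 907 and 883 CPM in the watered leaf and 18081 and 18904 CPM in the watered ear. For his2a1 (GRMZM2G305046) the values were 21.7 and 21.9 CPM in the drought leaf and 361 and 359 CPM in the drought ear. Its log2 fold change was -6.31 when watered and -4.05 under drought, a difference of -2.26 (edgeR interaction test, adjusted p = 3.54e-12). As his2a1 belongs to the same list, its difference is given as a description. Of the KNOX genes 8 were lower and 1 was higher under drought, and kn1 (GRMZM2G017087) had 1.77 and 2.93 CPM in the drought leaf and 206 and 210 CPM in the drought ear. The log2 fold change of kn1 differed by 0.24 between watered and drought plants (adjusted p = 0.732 in the edgeR interaction test). The cytokinin response regulators had 1 higher and 4 lower members under drought, against 7 higher and 1 lower when watered. This list holds genes that the study reports as lowered by drought in the ear leaf, among them RR6, RR7, crr1 and crr2. Its shift is therefore not independent of that report and is given as a description. The log2 fold change of RR7 (GRMZM2G096171) was 2.65 when watered, with 81.1 and 68.9 CPM in the ear leaf and 12.2 and 12 CPM in the ear, and -3.66 under drought. RR7 stands in the study's drought tables, so that this difference is given as a description.

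**Figure D5:**
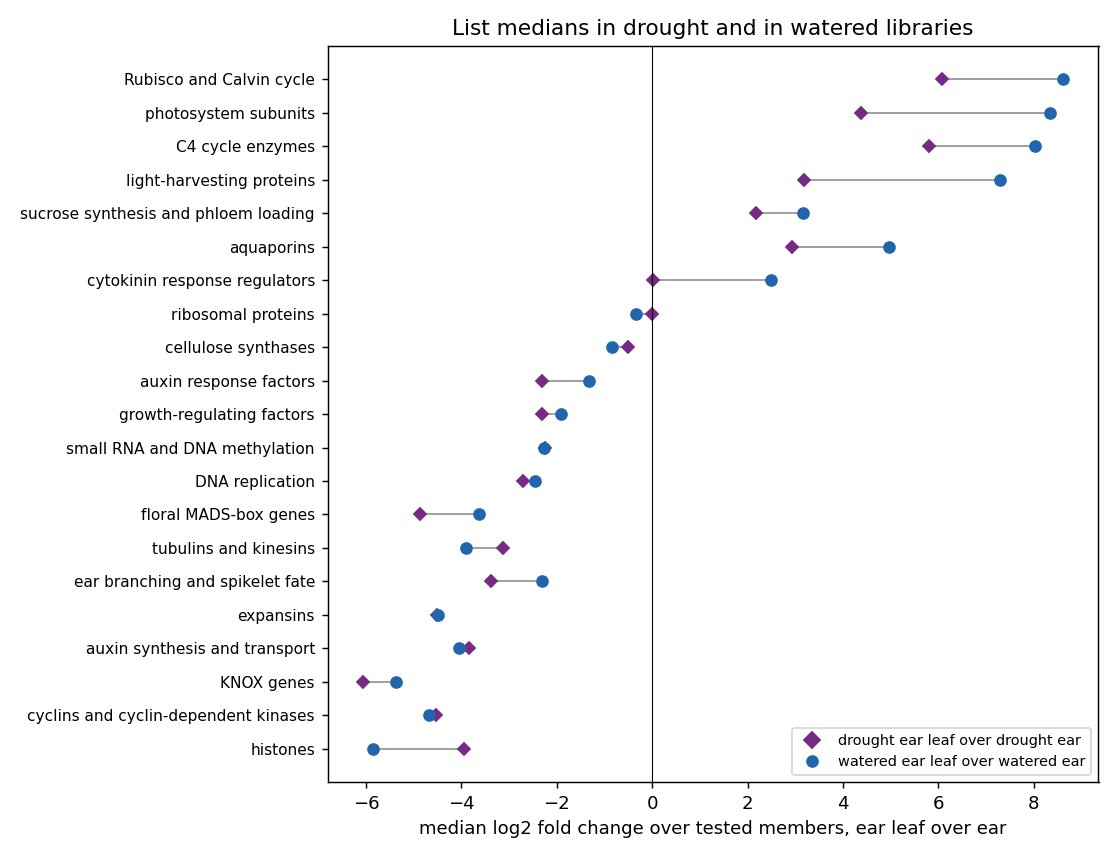
Each row is a gene list, with its median log2 fold change of ear leaf over ear on the x axis. A circle marks watered plants and a diamond drought plants, and genes without counts in an organ were set at their lower bound. The C4 cycle, a list chosen by gene symbols, lies at 8.02 when watered and 5.81 under drought. The light-harvesting, photosystem, histone and cyclin lists hold genes tabulated for a drought response, so that their shifts follow from that choice. The cytokinin response regulators also hold genes that the study reports as lowered by drought in the leaf.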

How the data were processed

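The ear leaf (5 days after pollination) and the young ear (V9) of watered B104 plants were compared, with 2 libraries per organ and organs of 4 plants in each library. Messenger RNA was enriched with oligo(dT), and libraries were made with a TruSeq kit and sequenced on a HiSeq instrument. The authors deposited 1 expected count and 1 FPKM value per gene and library, FPKM being fragments scaled to gene length and library size. The aligner, the annotation and the genome build were not given in the sources used here. Whether counting used strand was not stated, so that a gene and an antisense partner cannot be told apart.

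Rounding turned the expected counts into whole numbers, and filterByExpr removed genes with few of them. They were fitted with edgeR 4.0.16 in R 4.3.3 (TMM factors, glmQLFit and glmQLFTest) over 12 libraries in 6 groups, and Benjamini-Hochberg adjustment covered all genes tested. A gene was called where the adjusted p was below 0.001 and the log2 fold change reached 1 in size. FPKM was used for levels compared between genes and in limma 3.58.1. A gene without counts in both libraries of an organ was given a lower bound at 3 counts per library. With 1 to 3 counts in an organ an exact 95% interval of the ratio of counts was computed, which covers counting error only. It is printed for gnarley1 alone, and other genes with so few counts are given without it. An exact permutation test of 2 against 2 libraries cannot go below p = 0.33 and was not used. Alternatives were library size only, DESeq2 size factors, DESeq2 1.42.0, the 4 libraries alone, other filters and thresholds, limma on FPKM with pseudocounts of 1 and 0.1, a replicate block and each library left out. A fit of the 4 libraries with library size only was chosen after seeing the data. On simulated data for the watered organ comparison with 24938 genes, 97 of 100 genes changed 4-fold and 98 of 100 changed 8-fold were called, with 1 false call among 24738 genes. In that simulation all other genes were equal in every group, genes with few counts were not changed, and noise followed the fitted spread. In the data 48.7% of genes were called and the leaf pair varied more, so that these rates do not carry over to them.

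Gene names came from the RefSeq table of the assembly Zm-B73-REFERENCE-NAM-5.0, which has an entry for 18529 of 34423 genes (53.8%), and from supplementary tables of the study, which annotate 1234 genes. No coordinates were used. Named homologs are best hits in Arabidopsis as given there. The members and lists were chosen with earlier results of these data known. Lists meant to match gene descriptions were replaced after the values were available, because the table has no descriptions. Named genes were, per list, up to 6 members with the highest FPKM, all tested members of the C4, KNOX, meristem size and branching lists, the 10 called genes with the highest CPM in each organ, the 10 highest and 10 lowest folds, and called genes opposed to their list's median. Other list members named in the text were chosen after their values were seen, as were plastid genes and ACT1. Some genes are not reported here. Figures were drawn with matplotlib 3.10.9 under Python 3.11.15.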

Additional observations from a re-analysis of the deposited data

Results flagged for a closer look

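For 5 genes of the lists the organ difference was called in opposite directions in watered and in drought plants, and the difference between these comparisons was itself tested as an interaction in edgeR's quasi-likelihood fit with Benjamini-Hochberg adjustment. All 5 stand in the study's tables of genes that responded to drought in these libraries, so that their choice is not independent of the difference tested. They were also picked by their opposite calls in the same fit, which fixed a large difference in advance. The interaction p-values below are therefore a description and no further evidence. Among all 26090 genes tested, 51 were higher when watered and lower under drought, and 57 were the reverse. The cytokinin response regulator crr2 (GRMZM2G392101) had a log2 fold change of ear leaf over ear of 3.67 when watered and -2.81 under drought, a difference of 6.48 (adjusted p = 3.48e-11). For the response regulator RR7 (GRMZM2G096171) it was 2.65 when watered and -3.66 under drought, a difference of 6.31 (adjusted p = 2.18e-14). A homolog of the ferredoxin reductase LFNR2 (GRMZM2G395728), of photosynthetic electron transport, had 1.62 when watered and -1.05 under drought, a difference of 2.67 (adjusted p = 8.17e-08). Its levels were 26.1 and 24.0 CPM in the watered ear leaf and 8.8 and 7.54 CPM in the watered ear.

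The other 2 genes were lower in the watered leaf. The expansin gene expB8 (GRMZM2G013002) had a log2 fold change of -2.49 when watered and 1.79 under drought, a difference of -4.28 (adjusted p = 3.91e-17). The sucrose synthase gene sh1 (GRMZM2G089713) had -1.82 when watered and 2.31 under drought, a difference of -4.12 (adjusted p = 1.18e-23). In the watered libraries sh1 had 191 and 178 CPM in the ear leaf and 657 and 648 CPM in the ear.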

How the results depend on the processing

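No gene was called in opposite directions by the main fit and any alternative. The count of higher genes stayed within 1.5 times of 6822, from 4563 to 7560. The count of lower genes, 5881 with TMM, was 10245 with library size only, 9851 with limma on log2(FPKM + 1), 9821 with limma on log2(FPKM + 0.1), and 10065 in the 4 libraries with library size only, which was chosen after seeing the data. These alternatives leave out the TMM factors. Leaving out 1 library gave 6236 to 6642 higher and 4994 to 5482 lower genes, the lone library being assumed to vary like the other groups. A replicate block gave 6809 higher and 5849 lower genes. The labels give the replicates only a shared number, and the deviations of same-numbered samples had a correlation of 0.0269.

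Of 2089 values of named genes under alternatives 1977 kept their direction and call. A fold change of the other sign was found 39 times, in the following genes, of which GRMZM5G808939 alone was called on the TMM scale. With library size only, and equally in the 4 libraries with library size only, the log2 fold change was -0.83 for cat1, -0.69 for sut2, -0.72 for RNRS2, -0.13 for br2, -0.03 for knox6 and -0.51 for PIP2-1 and crd101. With limma and a pseudocount of 1 it was -0.82 for cat1, -0.57 for sut2, -0.67 for RNRS2, -0.13 for br2, -0.03 for knox6, -0.52 for PIP2-1 and -0.50 for crd101. With a pseudocount of 0.1 it was -0.83 for cat1, -0.64 for sut2, -0.70 for RNRS2, -0.14 for br2, -0.03 for knox6 and -0.52 for PIP2-1 and crd101. For cat1 it was -0.01 with DESeq2 size factors and with DESeq2, -0.04 in the 4 libraries alone and -0.02 without a filter. Leaving out 1 library gave -0.03 to 0.03 for cat1 and -0.05 to 0.37 for sut2. Without control leaf 1 it was 0.01 for gigz1a. Without control leaf 2 it was -0.05 for sut2, -0.02 for RNRS2 and -4.24 for GRMZM5G808939. Without control ear 1 it was -0.03 for cat1 and -0.00 for RNRS2.

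Of 559 list medians under alternatives 13 had another sign. The median of the clock and florigen list was -0.02 with library size only and -0.06 and -0.07 with limma, and that of the sucrose and starch list was -0.33, -0.22 and -0.31 in the same order. The endosperm markers gave -0.03 with library size, 0.27 in the 4 libraries, 0.33 with a mean of at least 10 counts, -0.05 with limma and 0.01 with the block, and the embryo markers gave 1.83 in the 4 libraries. Genes with few counts, such as ra1 and lg1, are limited by depth, since 3 counts were worth 1.31 CPM in control leaf 2.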

Other observations

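Aquaporins, the water channels of plasma membrane and vacuole, were mostly higher in the watered ear leaf. Of 16 tested genes 11 were higher and 2 were lower, against 26.1% and 22.5% of all genes, and with library size alone 10 were higher. The plasma membrane gene PIP1-1 (GRMZM2G174807) had 1431 and 1386 CPM in the ear leaf and 114 and 121 CPM in the ear. The vacuolar gene TIP4-1 (GRMZM2G103945) was 269-fold higher, with 276 and 258 CPM in the ear leaf and 1.12 and 0.819 CPM in the ear. PIP2-1 (GRMZM2G014914) was not called, with 1020 and 948 CPM in the ear leaf and 765 and 808 CPM in the ear. Enzymes of sucrose use and starch differed by gene, with 3 higher and 5 lower of 14 tested, against 26.1% and 22.5% of all genes. These counts are near the shares of all genes and say little about the list. The sucrose synthase sus1 (GRMZM2G152908) had 89.6 and 95 CPM in the ear leaf and 1209 and 1211 CPM in the ear, whereas sus2 (GRMZM2G318780) had 107 and 132 CPM in the ear leaf and 7.04 and 7.05 CPM in the ear. The cell wall invertase incw1 (GRMZM2G139300) had 176 and 183 CPM in the ear leaf and 2.08 and 1.31 CPM in the ear.

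Of 10 tested genes of the clock and florigen list 3 were higher and 3 were lower in the leaf, shares near those of all genes. The florigen gene ZCN8 (GRMZM2G179264) had 29.8 and 20.9 CPM in the ear leaf and 0.16 and 0.492 CPM in the ear, and ZCN7 (GRMZM2G141756) had no count in the ear and was at least 50.1-fold higher in the leaf. The clock gene gigz1a (GRMZM2G107101) was not called, at 191 and 210 CPM in the ear leaf and 215 and 200 CPM in the ear. The lower genes were PRR59 (GRMZM2G135446), with 10.8 and 10.5 CPM in the ear leaf and 40 and 37.8 CPM in the ear, conz1 (GRMZM2G405368), with 25 and 26.2 CPM in the ear leaf and 57.6 and 55.2 CPM in the ear, and DLF1 (GRMZM2G067921), with 0.284 and 0 CPM in the ear leaf and 5.92 and 5.24 CPM in the ear. Among 5 tested genes of cuticular wax gl1 (GRMZM2G114642) was higher, with 23.0 and 22.7 CPM in the ear leaf and 0.8 and 0.328 CPM in the ear, and fae1 (GRMZM2G022558) and AD1 (GRMZM2G167438) were lower. So small a list says little beside the 26.1% higher and 22.5% lower among all genes. Of 30 tested ribosomal protein genes 4 were higher and 2 were lower, against 26.1% and 22.5% of all genes. With library size alone 4 were higher and 17 lower, against 18.4% and 39.3% of all genes. The median log2 fold change of that list was -0.33, and the gene rpl19 (GRMZM2G171444) stood apart with 600 and 591 CPM in the ear leaf and 14.2 and 16.9 CPM in the ear.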
